A study of Mus musculus with 2 samples.

Results

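The regions described here are the intergenic intervals bound by Myc-tagged Dlx5 in a mouse T-cell lymphoma, that is, Myc-Tag ChIP-seq intervals whose summit lay away from genes. An interval was a member when its summit was in no protein-coding gene body, over 1 kb from every protein-coding gene end and over 2 kb from every end of any other gene, and when it was not also called in the input. Chromosomes 1 to 14 and 16 to 19 were used. The rule took 379 of the 3190 Myc-Tag intervals on these 18 chromosomes, which was 11.9% (95% Wilson interval 10.8 to 13.0%), and 10.9% of all 3477 intervals. The rule used position and the input calls only, and neither height nor width was a condition of it. The 16 intergenic intervals dropped for input calls had heights from 32 to 301, so the top of the member heights depends on that filter. Intergenic here refers to protein-coding genes, since 55 members (14.5%, 11.3 to 18.4%) lay inside the body of an annotated non-coding gene, 53 of them long non-coding RNA (lncRNA) genes, 1 a transcribed pseudogene and 1 the T-cell receptor β locus, Tcrb.

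The study asked which genes Dlx5 binds in a lymphoma that it drives. There were 2 libraries, 1 Myc-Tag ChIP and 1 input, both from Lck-Dlx5 T-cell lymphoma, with no replicates. Lck-Dlx5 mice carry a Myc-tagged Dlx5 transgene under the Lck promoter, which is active in thymocytes, and both groups carry it. The labels give the strain as C57BL/6 for the Myc-Tag sample and C57BL/7 for the input, and give neither an age nor a treatment beyond normal housing. The labels call the material a primary tumor and the control an input, whereas the study's methods describe a lymphoma cell line and an IgG control. Which of these the libraries came from is not settled, and the members describe 1 Myc-Tag library only. The antibody reads the tag and not the endogenous protein. Interval positions do not measure cell markers, so the labelled cell type could not be checked against them. The number of reads per library was not analysed here and the depth is therefore unknown, and the score deposited with a summit, a whole number of unstated scaling, is called its height.

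Dlx5 is a homeodomain transcription factor of the distal-less family that acts in bone, limb and forebrain development and is normally silent in thymocytes. Homeodomain proteins recognize short AT-rich DNA, and much of the control of T-cell genes runs through enhancers that lie far from the promoter, in the next intergenic stretch or inside a neighbouring gene. The gene nearest to a bound region is a way to name it and is not necessarily the gene that it controls.

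Sequences were taken where a table of RefSeq promoter windows (GRCm38.p6, from 250 bases before to 50 after a gene start) or of miRNAs, or the study's primer list, reached a member. Only 2 of the 379 member intervals overlapped such a window, both at transcript starts inside the bodies of lncRNA genes. They are shown because they are the member DNA that could be read, with the 21 bases around the summit in capitals where the summit fell inside. For Gm29952 the whole window on the plus strand, chr12:80273187-80273486, lay inside a member (chr12:80272953-80273647, height 15). For Gm33130 the part inside the member was chr10:69085780-69085850, read on the minus strand, and its summit (height 11) lay outside the window.
Gm29952 window: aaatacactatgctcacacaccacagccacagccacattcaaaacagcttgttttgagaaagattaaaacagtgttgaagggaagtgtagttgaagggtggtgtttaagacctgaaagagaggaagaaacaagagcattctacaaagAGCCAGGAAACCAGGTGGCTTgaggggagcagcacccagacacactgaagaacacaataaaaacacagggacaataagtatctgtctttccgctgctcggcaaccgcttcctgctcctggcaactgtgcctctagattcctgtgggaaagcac
Gm33130 stretch: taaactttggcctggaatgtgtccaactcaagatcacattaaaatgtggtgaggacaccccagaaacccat
The homeodomain core TAATT, searched on both strands, was in 0 of the 2 windows and in 27.0% of all 32851 windows of 300 bases. That says only that these letters were not in those windows. The Gm29952 member lay 12924 bp before the start of Actn1, which encodes the actin crosslinker α-actinin, and the Gm33130 member lay 65565 bp before the start of Rhobtb1.

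Some members lay within 10 kb of a miRNA gene, and all of these are named below. The share of the territory that lies so close is not given here, so no excess of members near miRNA genes is claimed. The Mir17 to Mir92-1 cluster, a set of miRNAs known to promote lymphoid growth, began 2679 bp from a member summit at chr14:115040738-115041155 (height 11, width 418 bp), whose nearest protein-coding gene, Gpc5, was 51209 bp away. Mir142, a miRNA gene of blood cells, and Mir142b, which overlaps it on the other strand, lay 2128 and 2105 bp from a member at chr11:87754433-87755256 (height 13, width 824 bp). The mature sequences of these genes are shown, one arm or both of each, because no sequence of the members themselves could be read there, with the seed (bases 2 to 8) in capitals.
mmu-miR-17-5p: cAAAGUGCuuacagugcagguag
mmu-miR-20a-5p: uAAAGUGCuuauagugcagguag
mmu-miR-18a-5p: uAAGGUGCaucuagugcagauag
mmu-miR-19a-3p: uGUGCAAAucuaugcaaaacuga
mmu-miR-19b-3p: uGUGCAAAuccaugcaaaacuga
mmu-miR-92a-3p: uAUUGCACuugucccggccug
mmu-miR-142a-5p: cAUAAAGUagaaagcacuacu
mmu-miR-142a-3p: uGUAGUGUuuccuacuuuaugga
mmu-miR-142b: uCCAUAAAguaggaaacacu
Within the cluster, miR-17-5p and miR-20a-5p share 1 seed, and miR-19a-3p and miR-19b-3p share another. Other miRNA genes within 10 kb of a member summit were Mir7-1 (4571 bp, height 17), Mir3968 (4068 bp, height 19), Mir7017 (5532 bp, height 13), Mir145a and Mir143 (4017 and 5388 bp from 1 member of height 16) and Mir5112 (2825 bp, height 15). The members beside Mir17 and Mir142 were thus below the median height of the members, which was 15.

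The member at the Notch1 locus lay at chr2:26449361-26450145, with its summit at 26449696, a height of 16 and a width of 785 bp. Notch1, a receptor that drives T-cell commitment and T-cell leukaemia, is on the minus strand, and the summit lay 8206 bp beyond its end. It was inside the lncRNA gene 0610009E02Rik and 3403 bp from the start of Sec16a, a gene of secretory vesicle export and its nearest protein-coding gene. The study reported Dlx5 binding at an element called enhancer B of Notch1 by ChIP-qPCR. In its reporter assays wild-type Dlx5 raised Notch1 promoter activity in the presence of this element. The study cloned enhancer B as a fragment, and the primers are shown because they frame the summit.
Enhancer B forward: actggagctgtggacactctg
Enhancer B reverse: tctgatagcaccagcatagcag
The numbers in the primer names, read as bp from the Notch1 start, place the pair at chr2:26449167-26450160, a stretch of 994 bp that holds the summit. The primer list does not state how the numbers were counted, and another starting point would move the stretch, so the framing is an assumption. By the same count the primers of a fragment called enhancer A span chr2:26458296-26459324, which holds the other summit at Notch1, at 26458816. The other summit at Notch1 (height 16) lay 914 bp inside a gene end and was no member, and no member was nearest to Notch1, Notch3 or Irs2. The study places its Notch3 site in an intron and its Irs2 site at the promoter. The rule leaves out gene bodies and positions within 1 kb of gene ends, so this absence says nothing about binding there. Ccnd1, which encodes cyclin D1, had a member at chr7:144941206-144942065 (height 25, width 860 bp), 1865 bp from one of its ends, and only 8.20% of all Myc-Tag summits were higher.

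Member intervals were as high as those at genes but narrower. Member heights ran from 9 to 44, with quartiles of 13, 15 and 19. Summits within 1 kb of a protein-coding gene end (1876 intervals) had the same quartiles and reached 73, and summits inside protein-coding bodies away from the ends (762 intervals) had quartiles of 13, 15 and 18. Of the members, 49 (12.9%, 9.92 to 16.7%) had a height at or above 24, the 90th percentile of all heights, against 9.33% (8.09 to 10.7%) at gene ends and 9.19% (7.34 to 11.4%) in gene bodies. These intervals overlap. All such intervals cover counting error only, and intervals of 1 library are not replicates, so no test was made.

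The median member width was 615 bp (quartiles 511.5 and 731 bp, range 280 to 2092 bp), against 792 bp at protein-coding gene ends, 678.5 bp in gene bodies and 733 bp near the ends of other genes. Of the members, 89 (23.5%, 19.5 to 28.0%) were narrower than 500 bp, against 6.34% (5.33 to 7.54%) at gene ends and 13.5% (11.3 to 16.1%) in gene bodies. The members were the narrower class at like height too. In the band of heights from 9 to 12 the median widths were 517 bp for members and 692.5 bp at gene ends, and in the band from 20 to 25 they were 687 and 810.5 bp. Against gene bodies the member medians were lower in each of the 4 bands, at 517 against 577 bp, 593.5 against 661 bp, 642.5 against 706.5 bp and 687 against 718 bp from the lowest band to the highest. Across the 379 members, which share 1 library, width followed height weakly (Spearman's rho 0.37).

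**Figure D1:**
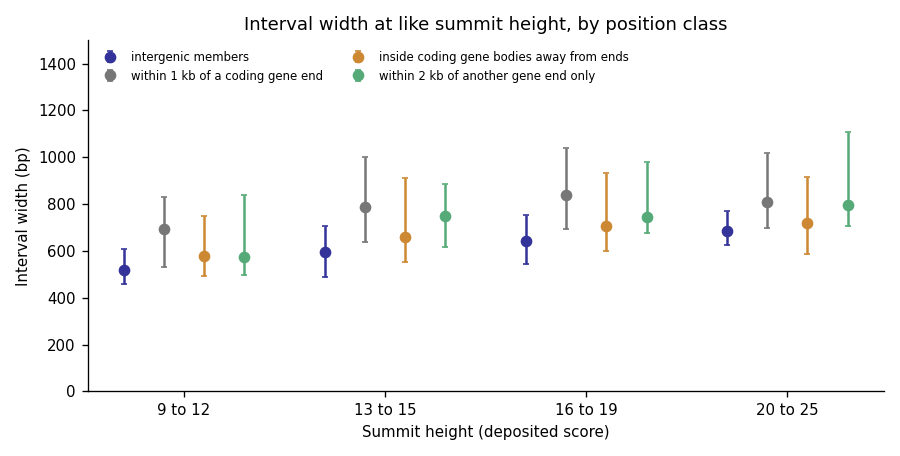
Median interval width in bp (points) with the quartiles (bars) against bands of summit height, for the members and 3 other position classes. In each band the members have a lower median width than intervals at gene ends, 517 against 692.5 bp in the lowest band and 687 against 810.5 bp in the highest.

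The tallest member (height 44, width 594 bp) lay 35202 bp beyond the end of Lrrc28, and 1.21% of all Myc-Tag summits were higher. The next was a member of height 42, inside the lncRNA gene Gm40841 and 266133 bp from Prl5a1, a prolactin family gene. A member of height 40 lay 11797 bp from Il27, which encodes a subunit of the cytokine IL-27. Members of height 36 lay 2814 bp from the arylsulfatase gene Arsi and 1833 bp beyond the end of H3f3b, which encodes histone H3.3. The remaining members among the 10 tallest were nearest to 1600014C10Rik (height 34, 3520 bp), the proteasome subunit gene Psma6 (height 33, 28453 bp), Ssbp2, a gene for a single-stranded DNA-binding cofactor (height 33, 89281 bp, inside the lncRNA gene A830009L08Rik), Lef1 (height 31, 162841 bp) and Itpkb, an inositol trisphosphate kinase gene of thymocyte development (height 31, 3742 bp). The 10 tallest members thus spanned distances from 1833 to 266133 bp. In all, 82 members (21.6%) had a height of 20 or more, against 19.9% of the 3167 intervals of all classes not called in the input.

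The median distance from a member summit to the nearest protein-coding gene end was 15166 bp, with quartiles of 4676 and 46543 bp. The members nearest the threshold were 1022 bp from Rrm2 (height 15) and 2014 bp from the non-coding gene Gm33145 (height 24), and the intervals just excluded were 995 bp from Pak4 (height 12) and 1998 bp from Gm41558 (height 14). Within 10 kb of a gene end lay 158 members (41.7%, 36.8 to 46.7%), although only 13.8% of the territory open to members, all positions that satisfy the rule, lay so close. Over 50 kb away lay 90 members (23.7%, 19.7 to 28.3%), against 62.5% of the territory, and over 100 kb away 47 members (12.4%, 9.46 to 16.1%), against 49.8%.

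Members were sparse in their territory and thinned out with distance from genes. There were 0.301 members per Mb (exact 95% Poisson interval 0.271 to 0.333) over 1260.1 Mb, against 26.1 intervals per Mb (24.9 to 27.3) within 1 kb of protein-coding gene ends, 0.843 per Mb (0.784 to 0.905) in gene bodies and 1.47 per Mb (1.25 to 1.73) within 2 kb of other gene ends only. From 1 to 2 kb from a gene end the density was 1.58 members per Mb (1.13 to 2.15, 40 members), from 10 to 20 kb it was 0.388 (44 members), from 50 to 100 kb it was 0.267 (43 members), and over 200 kb it was 0.0381 (0.0222 to 0.0609, 17 members). The fall was not even, since the density from 20 to 50 kb, 0.470 per Mb (87 members), was above that from 10 to 20 kb, with overlapping intervals. Assembly gaps and unmappable sequence were not removed from the territory, and their part in the fall was not tested.

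Height did not follow distance in the same way. The median height lay between 14.5 and 17 in each of the 8 distance bins, and Spearman's rho across the 379 members was 0.077 for height and 0.013 for width against distance. The 5 farthest members lay 863021 bp from Luzp2 (height 26), 730219 bp from Chordc1 (height 14), 372618 bp from Csmd1 (height 19), 332255 bp from Alkbh8 (height 22) and 276046 bp from Atp10a (height 17). The Alkbh8 member was 281 bp wide and lay 2848 bp from an interval of height 51 that was also called in the input, the only member with such a neighbour nearest to it within 10 kb.

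**Figure D2:**
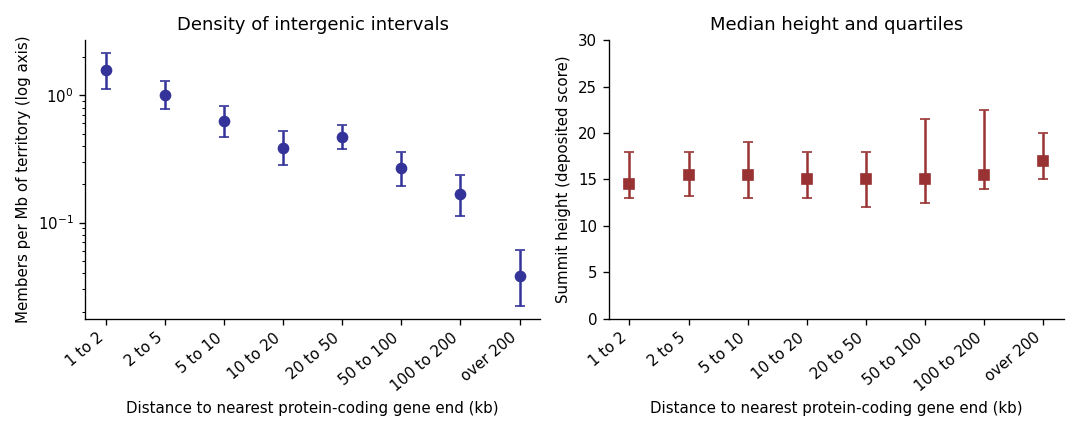
Members per Mb of territory (left, log axis, with exact 95% Poisson intervals) and median summit height with quartiles (right) against distance to the nearest protein-coding gene end in kb. The density falls from 1.58 to 0.0381 per Mb while the median height stays between 14.5 and 17.

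Members lay nearer to starts and ends of genes about as the territory did. Of the 306 members whose nearest gene had a strand in the RefSeq windows, 167 (54.6%, 49.0 to 60.1%) were closer to its start, and 53.2% of the territory was. From 1 to 5 kb the share was 44.2% (34.2 to 54.7%) against 51.3% of the territory, and over 20 kb it was 58.0% (49.6 to 65.9%) against 53.2%. Each interval held the territory's share.

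By chromosome the density ran from 0.126 members per Mb on chromosome 8 (9 members) to 0.485 on chromosome 19 (13 members). The density over all chromosomes lay within the Poisson interval of 15 of the 18 chromosomes. The median height per chromosome ran from 13 to 17.5 and the median width from 450.0 to 695 bp.

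**Figure D3:**
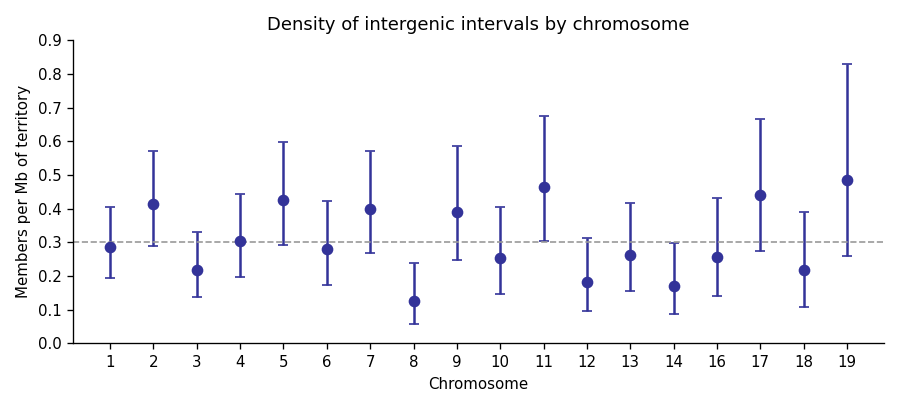
Members per Mb of territory on each of the 18 chromosomes (points) with exact 95% Poisson intervals (bars); the dashed line is the density over all of them, 0.301 per Mb. Chromosome 8 is lowest at 0.126 and chromosome 19 highest at 0.485.

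The input library had 28 intervals, and each coincided exactly with one of the Myc-Tag library. On the 18 chromosomes, 0.721% of the Myc-Tag intervals were called in the input as well. The rule dropped 16 intergenic intervals for that reason, and these were tall, with Myc-Tag heights from 32 to 301 (median 90.5) and input heights from 20 to 164 (median 50.5). The Myc-Tag height was 1.37 to 2.90 times the input height in them (median 1.83). No value of the input library at the members themselves was analysed here.

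The members were nearest to 344 different protein-coding genes, which is 1.73% of the 19885 on these chromosomes. Of these genes, 316 had 1 member, 23 had 2 and 4 had 3, and Lef1 alone had 5. Lef1 encodes an HMG-box factor of T-cell development and partner of β-catenin. Its members lay 173097 bp (height 18), 162841 bp (height 31), 95769 bp (height 28) and 45145 bp (height 16) before its start and 1163 bp beyond its end (height 14), and the last was the widest of all members, at 2092 bp. A further summit in the Lef1 body (height 13), 97799 bp from the start, was no member, and no summit lay within 1 kb of either end of Lef1. The members 162841 and 95769 bp before the start were the highest of the 5, and both were above the 90th percentile of all heights.

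The genes with 3 members, named after their values were seen, were Cux1, H3f3b, Fkbp5 and Zfp217. Cux1, a homeodomain repressor gene, had members 1402 bp (height 13), 55706 bp (height 23) and 58106 bp (height 22) before its start. Zfp217, a zinc-finger gene, had members 2035 bp (height 11), 68291 bp (height 28) and 71299 bp (height 13) before its start. At both genes the distant members formed a pair and were higher than the one beside the start. At H3f3b the members lay 1833 bp (height 36), 2537 bp (height 14) and 3721 bp (height 11) beyond the end, next to a summit of height 20 that was 521 bp from the end. At Fkbp5, which encodes a glucocorticoid-induced chaperone partner, they lay 1969 bp (height 13), 4065 bp (height 13) and 10193 bp (height 22, width 1859 bp) beyond the end, and a further summit (height 15) lay 645 bp from the start.

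Genes of T-lineage transcription factors, a list of 36, had 7 that were nearest to a member (19.4%, against 1.73% of all protein-coding genes), with 13 members in their 7.72 Mb of territory, or 1.68 per Mb (0.896 to 2.88). Of those 13 members, 5 were at Lef1. This list and those below were chosen with earlier results of these data known, so their shares and densities are descriptive only. Tcf7, the close relative of Lef1 needed for T-cell commitment, had a member 30889 bp before its start (height 23). Ikzf1, which encodes Ikaros, had members 16834 bp (height 14) and 6018 bp (height 25, inside the lncRNA gene Gm11999) before its start. Foxo1, a forkhead gene of T-cell homeostasis, had members 5713 bp before its start (height 22) and 108707 bp beyond its end (height 28), and a promoter summit of height 12. In each of these 3 genes the highest member was higher than the summit within the gene. The other members of the list were at Tox, an HMG-box gene of CD4 lineage choice (height 11, 4209 bp), at Tcf12, which encodes an E protein (height 12, 21243 bp), and at Id2, which encodes an inhibitor of E proteins (height 16, 263972 bp).

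**Figure D4:**
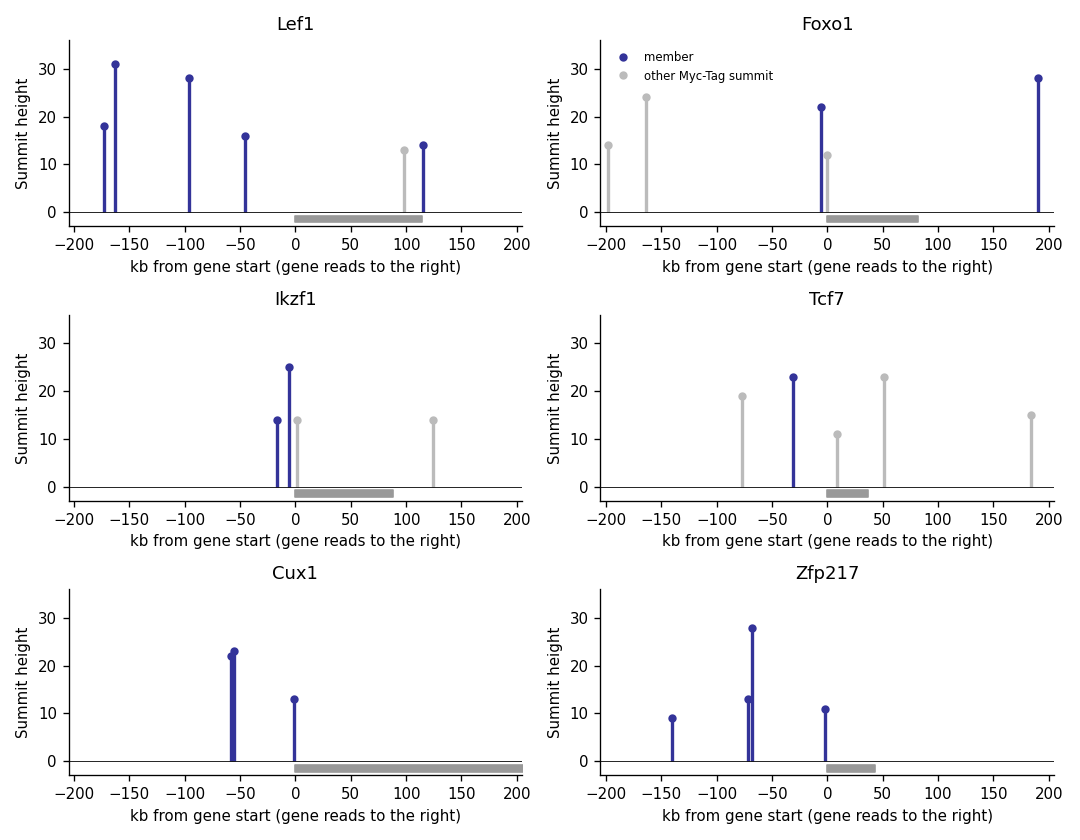
Summit height (deposited score) against distance in kb from the start of 6 genes, each drawn so that it reads to the right, with the gene as a grey bar; blue stems are members and grey stems other Myc-Tag summits within 200 kb. At Lef1, Foxo1 and Zfp217 the highest members, of height 31, 28 and 28, lie over 50 kb from the gene start; 1 member drawn at Zfp217, of height 9, is nearest to another gene.

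Of 35 genes of the T-cell receptor, coreceptors and signaling, 5 were nearest to a member (14.3%, against 1.73% of all protein-coding genes). Their territory held 1.90 members per Mb (0.616 to 4.43). Cd28, the costimulatory receptor gene, had the highest, a member of height 29 that lay 88580 bp from it, and a summit of height 17 lay 4 bp from one of its ends. Il2ra, which encodes the α chain of the IL-2 receptor, had a member of height 16 and width 1365 bp that lay 6653 bp before its start. Ptprc, which encodes the phosphatase CD45, had a member of height 20 at 255883 bp, Cd5 a member of height 14 at 12846 bp and Lat, which encodes a T-cell receptor adaptor, a member of height 13 at 24195 bp. The member inside the Tcrb locus (height 17, width 1452 bp) lay 3213 bp from the end of the gene segment Trbv31, and its nearest protein-coding gene was Prss2, 29401 bp away.

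Of 28 Notch pathway and cell cycle genes, 2 were nearest to a member (7.14%, against 1.73% of all protein-coding genes), Ccnd1 and Cdkn1b. The member 8206 bp beyond the end of Notch1 was nearest to Sec16a, so neither this count nor the density of the list includes it. Cdkn1b, which encodes the cell cycle inhibitor p27, had a member of height 20 at 3649 bp before its start and a summit of height 15 at its promoter. Foxo3, a forkhead gene that Akt restrains, had a member of height 16 at 1422 bp before its start. Of 21 bone genes linked to Dlx5, Bmp7 alone was (4.76%), with a member of height 12 at 139372 bp, and of 25 genes of other tissues Gad1 alone was (4%), with a member of height 16 at 1623 bp inside the antisense gene Gad1os. None of 1095 olfactory receptor genes was nearest to a member, and a count of 0 in their 25.5 Mb of territory allows up to 0.145 members per Mb. The intervals of the Notch and cell cycle, bone and other tissue lists held the density of 0.301 per Mb over all territory. Those of the T-lineage and T-cell receptor lists lay above it, and the olfactory upper limit lay below it.

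Members lay more densely beside genes with a summit at an end. A Myc-Tag summit lay within 1 kb of an end of 11% of the 19885 protein-coding genes, and of 10.2% of the 17493 that had any territory. Of the 344 genes nearest to a member, 72 did (20.9%, 17.0 to 25.5%). Beside such genes there were 0.853 members per Mb (0.679 to 1.06, 83 members), against 0.255 (0.226 to 0.285, 296 members) beside genes without. The intervals did not overlap in any of 3 distance ranges. From 1 to 10 kb there were 2.05 (1.37 to 2.94) against 0.809 (0.675 to 0.961) members per Mb, from 10 to 50 kb 1.11 (0.728 to 1.61) against 0.380 (0.310 to 0.460), and over 50 kb 0.460 (0.303 to 0.669) against 0.0864 (0.0664 to 0.111). Gene density and mappability around both kinds of gene were not compared.

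**Figure D5:**
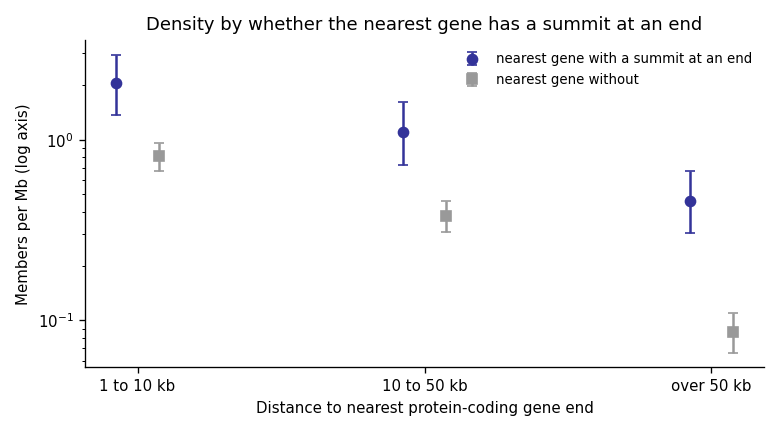
Members per Mb of territory (log axis) with exact 95% Poisson intervals, by distance to the nearest protein-coding gene, for genes with and without a Myc-Tag summit within 1 kb of an end. In each of the 3 ranges the density is higher beside genes with a summit, 2.05 against 0.809 per Mb from 1 to 10 kb.

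Most members stood alone. Another Myc-Tag summit lay within 10 kb of 47 members (12.4%, 9.46 to 16.1%), close to the 14.1% (12.6 to 15.8%) at gene ends and 15.6% (13.2 to 18.4%) in gene bodies. The nearest such neighbour was at a protein-coding gene end for 20 members, another member for 18, at another gene end for 5 and in a gene body for 3. Another member lay within 50 kb of 50 members and within 100 kb of 75. The closest pair was 443 bp apart, inside the lncRNA gene 5031425E22Rik beside Kmt2e, which encodes a trithorax-related protein (heights 12 and 10). A pair 496 bp apart lay beside Glp1r (heights 25 and 13).

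The 55 members inside non-coding gene bodies had a median height of 16 and a median width of 675 bp, against 15 and 612 bp for the 324 outside every gene. They included a member in Morrbid, a lncRNA gene of myeloid cell survival (height 15, width 1177 bp), and 1 in Dleu2, the host gene of Mir15a (height 16, width 1171 bp).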

How the data were processed

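ChIP-seq was analysed from 1 Myc-Tag ChIP and 1 input library of Lck-Dlx5 lymphoma. The authors deposited 5 browser tracks in 1 table, 3477 active regions being 1 track and the summits and intervals of both libraries the others. The height deposited with each summit is a score of unstated normalization. The study's methods name Active Motif, an Illumina GA II and peak calling by MACS p-value; the submitters' processing notes name BWA and mm9, whereas a browser view of the study names mm10. Positions were read as mm10, since 58.4% of the 3477 summits then lay within 1 kb of a protein-coding gene end. Of the summits, 3329 were multiples of 16 bp, so positions are not exact to the base.

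Each summit was joined to its interval and placed against the RefSeq genes of GRCm38.p6, with strands from the RefSeq promoter windows. Territory was counted base by base between the first and last gene of each chromosome. For values by distance, gene side or nearest gene it was counted every 100 bp. Shares have 95% Wilson intervals and counts exact 95% Poisson intervals, and a count of 0 has its exact upper limit. Genes named were those nearest to the 10 tallest members, to the 5 farthest members and to 4 or more members, list genes nearest to a member, Notch1, Notch3, Irs2 and Ccnd1, and members at the edges of the rule; those with 3 members, pairs and non-coding or miRNA neighbours were named after their values were seen. The result of 1 further list is not reported here. Members and lists were chosen with earlier results of these data known. With 1 library a group, no p-value was computed. The scripts, tested on simulated data, used scipy 1.17.1 for intervals, pandas 2.3.3 and numpy 2.4.6 for tables and matplotlib 3.10.9 for plots, under Python 3.11.15.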

Additional observations from a re-analysis of the deposited data

Results flagged for a closer look

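Chromosome 15, which the rule leaves out, held 43 Myc-Tag intervals that met its other conditions, or 0.735 per Mb (exact 95% Poisson interval 0.532 to 0.990). That was above the 0.301 per Mb of the 18 chromosomes used. The highest of them, chromosome 19, had 0.485 per Mb, and its interval of 0.258 to 0.830 overlapped that of chromosome 15. Chromosome 15 was flagged because it lies outside the main measurement and because only 1 of the 44 intervals by position was also called in the input. Their median height was 20 and their median width 804 bp, against 15 and 615 bp for the members. The study names trisomy 15 as the only karyotype change that recurred among Lck-Dlx5 lymphomas. Copy number was not analysed here, and the part of an extra chromosome 15 in these values was not tested.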

How the results depend on the processing

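Of 35 values recomputed, 5 results under 7 alternatives, 27 moved by less than their 95% interval. Keeping 5 kb free around protein-coding gene ends left 273 members, 8.56% of the intervals, with a median distance of 30889 bp and 0.233 members per Mb. Leaving out the bodies of every annotated gene left 324 members, 10.2% of the intervals. With heights at or above the median of all summits the median height was 19, the density 0.143 per Mb and the share with a neighbour within 10 kb 6.11%. With intervals closer than 10 kb merged that share was 0 by construction. These shifts follow from fewer positions or intervals being admitted. The midpoint in place of the summit, intervals called in the input kept and chromosome 15 included moved none of the 5 values beyond their intervals. The unknown depth limits all counts to what was called. No paired analysis was possible because the Myc-Tag ChIP and the input have 1 library each.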

Other observations

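Further members had an immune gene as their nearest protein-coding gene, at distances up to 169518 bp. These genes and the growth genes below were picked from the 344 nearest genes after their values were seen. The share of immune or growth genes among the 344 was not counted. Il6st, which encodes the shared receptor subunit of IL-6 type cytokines, had a member of height 23 at 36518 bp before its start, and Map3k8, a kinase gene of inflammatory signaling, one of height 21 at 28093 bp. Gimap1 and Gimap3, GTPase genes of lymphocyte survival, had members of height 15 and 10 at 5959 and 1277 bp before their starts. Vav1, a T-cell receptor signaling gene, had a member of height 16 at 5644 bp beyond its end, and Cblb, a ubiquitin ligase gene that restrains T-cell activation, one of height 15 at 24094 bp before its start. Tnfaip3, which encodes the NF-κB inhibitor A20, had a member of height 14 at 169518 bp.

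Among growth genes, Mki67, which encodes the proliferation marker Ki-67, had a member of height 25 at 19422 bp before its start, and Nf1, a Ras inhibitor gene, one of height 24 at 2742 bp. Bmf, a gene of the pro-apoptotic BH3-only family, had a member of height 17 at 4874 bp before its start. On chromosome X, outside the chromosomes used, 11 intervals met the other conditions, or 0.0944 per Mb (0.0471 to 0.169), with a median height of 15, and on chromosome Y 1 did (height 18).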
